A study of Mus musculus with 4 samples.

Results

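The cells described here are bone marrow cells that carried RNA of complement component C1q. They were selected on this RNA alone: among cells with 200 to 10000 detected genes and at most 10% mitochondrial counts, a cell was taken when its unique molecular identifiers (UMIs, each marking 1 captured RNA molecule) of C1qa, C1qb and C1qc summed to at least 3. This gave 339 of 39167 filtered cells, or 0.866%. The cells came from bone marrow mononuclear cells (BMNCs), flushed from femur and tibia and taken from the interface of a Ficoll gradient. The donors were 2 TLR9-/- mice and 2 wild-type (WT) mice of the C57BL6/J strain. Single-cell RNA-seq that reads transcripts at the 5′ end gave 1 library for each mouse. TLR9-/- mice carry a disrupted Tlr9 gene in all cells, and Toll-like receptor 9 (TLR9) is the endosomal sensor of unmethylated CpG DNA. The mice of the genotypes were bred in separate cages, so housing and genotype cannot be told apart. The age and sex of these mice were not given in the sources used here. No treatment is named in the labels.

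C1q is the recognition unit of the classical complement pathway. It is built from the chains encoded by C1qa, C1qb and C1qc, and tissue macrophages are a main source of it. In the marrow, resident macrophages sit at the centre of erythroblastic islands, where Vcam1 and other adhesion molecules hold maturing erythroblasts, engulf the nuclei that these expel, and recycle haem and iron. They also clear dying lymphocytes and aged neutrophils. Adgre1 encodes F4/80, the surface antigen by which mouse macrophages are usually stained. A droplet that holds a macrophage can therefore also hold RNA of cells that are attached to it or engulfed by it.

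The C1q genes lie in a cluster on chromosome 4 of the GRCm38 (mm10) genome, all on the minus strand: C1qb at chr4:136880129-136886187, C1qc at chr4:136889804-136893065 and C1qa at chr4:136895917-136898803. The upstream DNA of the genes that choose the cells is shown because the RNAs of these genes define the cells. The sequences are from RefSeq (GRCm38.p6), which gave promoter entries for C1qb and C1qc, and not for C1qa. They are written 5′ to 3′ on the minus strand, cover chr4:136886201-136886450 for C1qb and chr4:136893066-136893164 for C1qc, and hold only bases outside annotated exons. Capitals mark GAGGAA, a core bound by the myeloid factor PU.1, and TGCTGA, a part of the element bound by MAF, each searched on both strands with no overlap between them in these windows.
C1qb: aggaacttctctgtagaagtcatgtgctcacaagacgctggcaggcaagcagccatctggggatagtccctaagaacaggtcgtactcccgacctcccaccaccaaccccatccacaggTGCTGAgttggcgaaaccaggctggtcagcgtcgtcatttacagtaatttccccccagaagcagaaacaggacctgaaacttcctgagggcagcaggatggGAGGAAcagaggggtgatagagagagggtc
C1qc: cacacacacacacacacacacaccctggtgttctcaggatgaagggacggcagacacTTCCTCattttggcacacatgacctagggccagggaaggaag

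The C1qb window held 1 GAGGAA, starting 30 bases before the RefSeq start, and 1 TGCTGA, starting 131 bases before it. The C1qc window held 1 GAGGAA on the other strand (TTCCTC as printed) and no TGCTGA. Of 32851 promoters, 23.3% held GAGGAA and 16.1% held TGCTGA in a window as long as that of C1qb, and 9.91% held GAGGAA in one as long as that of C1qc. These matches are letters in the sequence, and no binding was measured here.

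The C1q-positive cells numbered 76 and 89 in the libraries TLR9-/- 1 and TLR9-/- 2, and 117 and 57 in WT 1 and WT 2. They were 0.705% (95% exact interval 0.556 to 0.882) and 0.998% (0.802 to 1.23) of the filtered TLR9-/- cells and 1.11% (0.916 to 1.32) and 0.641% (0.486 to 0.829) of the filtered WT cells, intervals that cover counting error only. The highest and the lowest share were both WT. The members held 374524, 875636, 550666 and 433383 UMIs in this order of libraries, with medians of 3043, 4242, 3088 and 3563 UMIs per cell, against 2545, 3618, 1759 and 2287 over all filtered cells. Their depth was thus above that of the other cells in every library. No barcode of a member was shared with a member of another library, while 112 to 185 barcodes of filtered cells were shared by each pair of libraries.

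**Figure D1:**
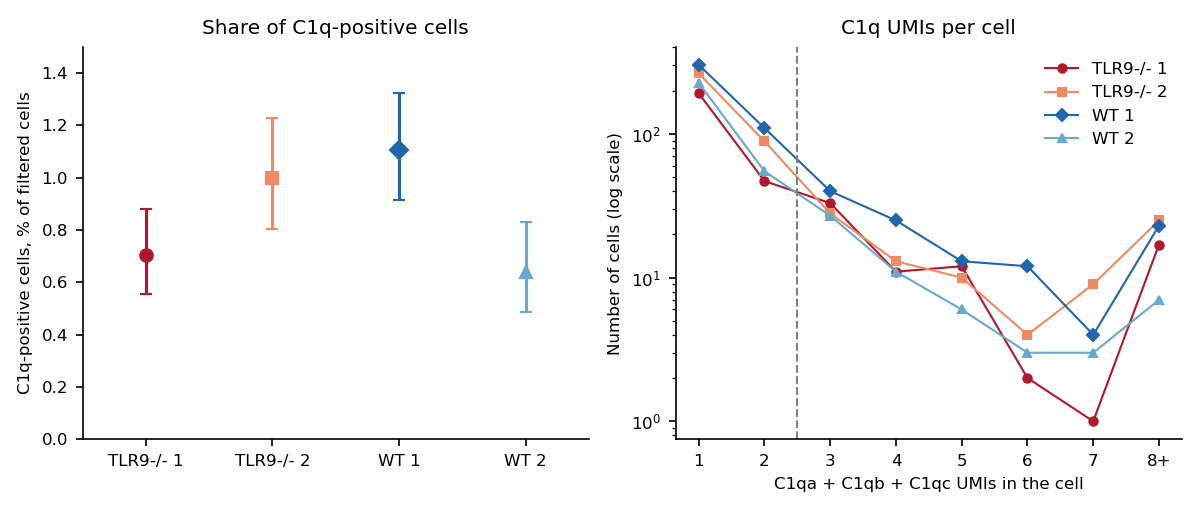
Left, C1q-positive cells as a percentage of filtered cells in each library (points) with 95% exact binomial intervals (bars); right, number of cells (log axis) by the summed C1q UMIs in the cell, with the selection limit between 2 and 3 as a dashed line. The shares of the genotypes overlap, between 0.641% and 1.11%, and summed over the libraries the cell numbers decline from 986 at 1 UMI to 17 at 7 UMIs without a gap at the limit.

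C1q RNA was thinly spread, and the selection limit lay on a continuous slope. In the 4 libraries 986 cells had 1 C1q UMI, 301 had 2 and 128 had 3, while 47 cells had 10 or more. The members held 65.3%, 58.8%, 60.3% and 47.6% of all C1q UMIs of their libraries, and the richest single cell had 93, in WT 1. C1qa gave 28.2% to 34.0% of the C1q UMIs of members, C1qb 36.6% to 43.0% and C1qc 26.5% to 30.8%. All chains were found together in 36 of 76, 53 of 89, 58 of 117 and 21 of 57 cells. Just inside the limit, at 3 UMIs, 46.1% of cells had a Vcam1 UMI and 31.2% had at least 3 macrophage genes. Just outside it, at 2 UMIs, these shares were 35.9% and 29.9%. At 0 C1q UMIs they were 3.25% and 2.14%.

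Free RNA can put single C1q UMIs into droplets of any cell, so the cells that should lack C1q were counted. Of cells with at least 3 UMIs of Cd79a and Cd79b, the signalling chains of the B-cell receptor, 1.40%, 2.13%, 2.59% and 2.19% had any C1q UMI, at median depths of 1303 to 1875 UMIs. Erythroid cells had 8.32%, 8.72%, 9.87% and 7.93%, at medians of 2247 to 9485.5. Cells with at least 3 UMIs of Ly6c2, at least 1 of Ccr2 and none of Cd79a, here called classical monocytes, had 2.93%, 6.28%, 7.28% and 5.17%, at medians of 4433 to 7465. Cells with at least 3 of 16 macrophage genes other than C1q had 26.6%, 26.0%, 47.7% and 39.7%, at medians of 4009.5 to 11891.5. With every cell thinned to 2000 UMIs, the B-lineage range was 1.16% to 2.80%, the erythroid range 2.65% to 8.20% and the macrophage-gene range 11.9% to 34.8%. In each library the cells with macrophage genes stood above the B-lineage background also at equal depth.

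The label of macrophages was borne out for only some of the cells. Vcam1 was detected in 178 of 339 members (52.5%) and Adgre1 in 39 (11.5%). At least 3 of the 16 macrophage genes besides C1q were found in 159 members (46.9%), and in 1030 cells that were not members. Of the further markers, Apoe was found in 262 members, Hmox1 in 163, Cd68 in 124, Fcna in 123, Csf1r in 86, Slc40a1 in 81, Axl in 77, Mrc1 in 73 and Maf in 55. Markers of particular resident macrophages were sparse, with Cd5l in 32 members, Cd163 in 19, Spic in 16, Siglec1 in 12, Mertk in 11, Timd4 in 4 and Vsig4 in 2. The cells are therefore called C1q-positive cells here, and not macrophages.

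Vcam1, the adhesion molecule of island macrophages, had 43, 161, 133 and 99 UMIs in the members of TLR9-/- 1, TLR9-/- 2, WT 1 and WT 2. It was found in 34.2%, 62.9%, 51.3% and 63.2% of them, against 3%, 5.60%, 2.98% and 4.90% of the other cells. TLR9-/- 1 was the low library, and in each library the share of members lay far above that of the other cells. Thinned to 2000 UMIs the shares were 16%, 27.4%, 36.1% and 24.4% against 1.52%, 2.08%, 2.13% and 2.88%. Adgre1 was found in 9.21%, 18%, 9.40% and 8.77% of members, against 2.24%, 3.44%, 1.47% and 2.12% of the other cells. It gave no such separation from classical monocytes, where its shares were 9.68%, 13.2%, 10.6% and 16.6%. Csf1r, the receptor for macrophage colony-stimulating factor, was found in 28.9%, 36.0%, 14.5% and 26.3% of members and in 45.0%, 58.3%, 40.6% and 48.5% of classical monocytes, which were deeper. At 2000 UMIs per cell its shares were 20.0%, 17.8%, 13.3% and 7.32% in members and 17.3%, 21.0%, 20.9% and 20.3% in classical monocytes, so that members were not lower in TLR9-/- 1.

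Beyond C1q, the genes with the highest levels in members relative to all other cells included genes of macrophages for lectins, dead-cell receptors, adhesion and haem breakdown. Among 3470 genes with at least 10 UMIs in the members of every library, the 25 with the highest member-to-other ratio, taken in the library where it was lowest, were listed. Levels are given as CPM, a gene's UMIs among 1000000 UMIs of the same cells, and the ratio was formed after adding 1 CPM to both sides, and no test was made, since the cells were chosen on C1q. Fcna, which encodes the macrophage-derived lectin ficolin A, led the list with 90.8, 99.4, 123 and 87.7 CPM in members against 2.05, 2.20, 3.85 and 2.86 in other cells, a ratio of 23.0 to 31.3. Its mean was 2.74 CPM in classical monocytes, as in all other cells. Members were 0.866% of the cells and held 32.3% of all Fcna UMIs.

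Next in this order were Axl, Vcam1 and Mrc1. Axl, a receptor for phosphatidylserine bridged by Gas6, had 64.1, 43.4, 59.9 and 32.3 CPM in members against 1.79 to 4.57 in other cells. Mrc1, the mannose receptor, had 80.1, 36.5, 40.0 and 25.4 against 1.66 to 2.51, with the highest value in TLR9-/- 1 and the lowest in WT 2. In 258 cells grouped as dendritic-like Mrc1 had 58.8, 19.6, 27.5 and 56.4 CPM, above the members in WT 2 only. Maf, a transcription factor of macrophages, had a ratio of 6.92 to 10.0. Lgmn, an endopeptidase of lysosomes, had a ratio of 2.77 to 4.84. Of genes for haem, iron and lipid, Hmox1, which encodes the enzyme that opens the haem ring, had 171, 174, 153 and 87.7 CPM in members against 14.5, 18.7, 15.3 and 11.5. Apoe, the apolipoprotein E gene, had 1153.5, 574, 999 and 448 against 107 to 129.5. Trf, the transferrin gene, had a ratio of 2.35 to 4.50 and Selenop, the selenium carrier gene, 2.74 to 3.06. For each of these genes the members of every library lay above the other cells, as the rule for the list asks, while the size of the ratio varied more for Mrc1 and Axl than for Selenop.

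The remaining genes of the list included genes of MHC class II. H2-Ab1 and H2-Eb1, genes of MHC class II, had ratios of 2.49 to 7.23 and 2.03 to 9.28. In the dendritic-like cells both were higher than in members, with means of 3298 and 3126 CPM against 792 and 857. Sdc3, Aif1, Fabp4, Clec4a3, Clec4a1, Cx3cr1, Fcgrt, Fam213b, Fam46c, Cd300c2, Pilrb1 and Irf7 were also on it. Cx3cr1, the fractalkine receptor gene, had a mean of 49.1 CPM in members and 48.6 in classical monocytes. By library it had 80.1, 40.0, 50.8 and 25.4 in members and 45.7, 36.9, 58.7 and 53.1 in those monocytes. Members were thus above them in both TLR9-/- libraries and below them in both WT libraries. The means of Vcam1 in members and classical monocytes were 192 and 12.0, those of Hmox1 146 and 27.8, and those of Apoe 794 and 199. Of the 25 genes, 16 had RefSeq promoter entries, and of these 8 held GAGGAA and 2 held TGCTGA in the 250 bases before the start. Over 32851 promoters, 23.3% held GAGGAA and 16.1% held TGCTGA in a window of that length. No test was made.

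**Figure D2:**
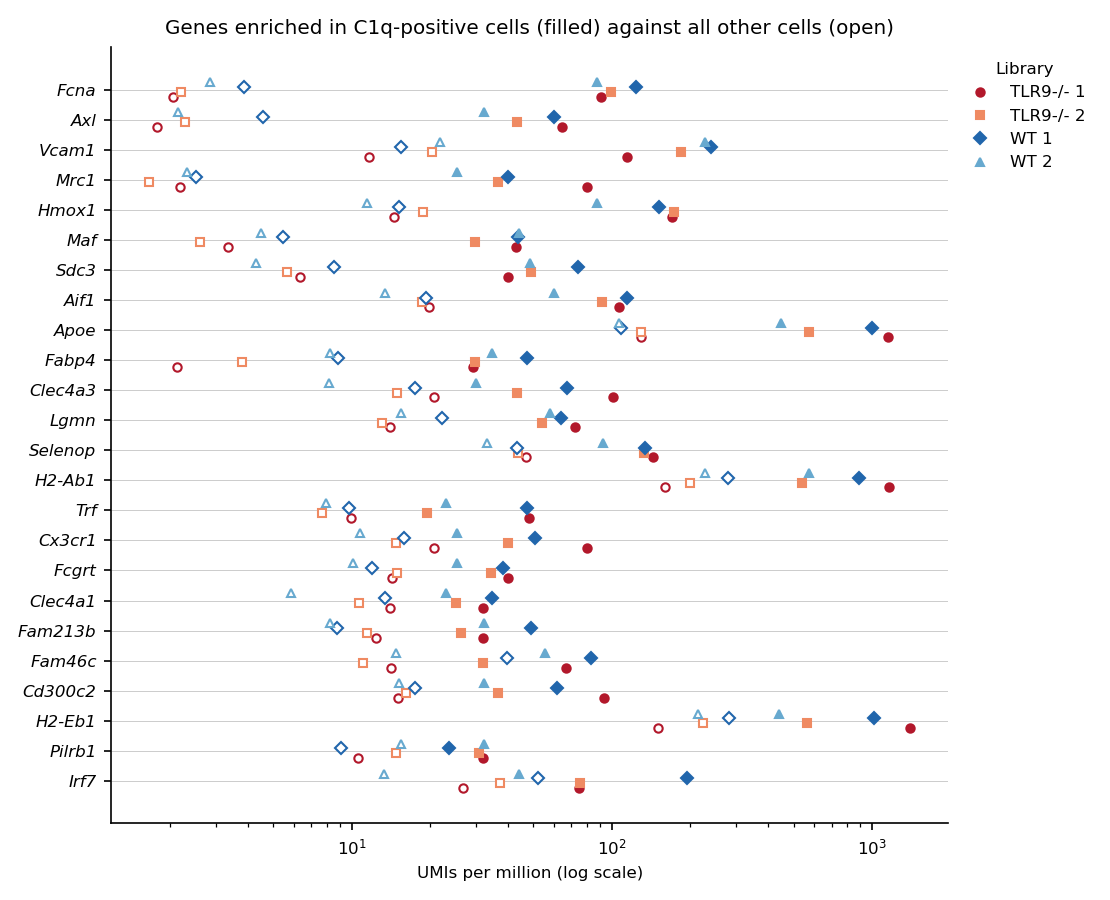
CPM (log axis) of 24 of the listed genes in C1q-positive cells (filled) and in all other filtered cells (open), with 1 symbol per library. For each gene the filled symbols lie to the right of the open symbol of the same library, with the widest gap for Fcna.

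Other genes of macrophage functions were nearer to their level in the other cells. Of the dead-cell uptake list, Rac1, which encodes a GTPase of engulfment, had a ratio of 0.834 to 1.04. Of the lysosome list, Ctsb, a cathepsin gene, had a ratio of 1.68 to 2.54, Psap 1.13 to 1.72 and Npc2 0.907 to 1.25. Ftl1 and Fth1, the ferritin chains that store iron, had ratios of 1.25 to 1.60 and 1.27 to 1.80. Sirpa, the receptor that reads the CD47 signal of living cells, had 1.88 to 2.24. Of the complement list, C3 had a mean of 138 CPM in members and 106 in other cells. Spi1, which encodes PU.1, had 200 and 216, and Tyrobp, an adaptor of myeloid receptors, 2072 and 1670. Tyrobp and Spi1 are expressed by most myeloid cells.

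Cells with more C1q RNA more often carried at least 3 macrophage genes and the class II gene H2-Aa, but not every macrophage gene was more frequent in them. Members were divided into 188 cells with 3 or 4 C1q UMIs, 104 with 5 to 9 and 47 with 10 or more. At least 3 macrophage genes were found in 32.4%, 60.6% and 74.5% of them. Csf1r was found in 19.7%, 23.1% and 53.2%, Axl in 14.4%, 26.9% and 46.8%, Mrc1 in 14.9%, 25% and 40.4% and Adgre1 in 7.98%, 10.6% and 27.7%. H2-Aa, a class II chain, was found in 42.6%, 54.8% and 91.5%, and Lyz2, the lysozyme gene of myeloid cells, in 61.7%, 76.0% and 97.9%. Vcam1 varied less, with 47.3%, 58.7% and 59.6%, as did Hmox1, with 45.7%, 51.9% and 48.9%. The iron exporter gene Slc40a1, with 19.1%, 32.7% and 23.4%, and Cd5l, with 6.91%, 13.5% and 10.6%, were most frequent in the middle group. Summed over the libraries, erythroid and B-lineage shares were lower in the richest cells: at least 3 of 14 erythroid genes were found in 28.2%, 27.9% and 10.6%, and at least 3 of 12 B-lineage genes in 24.5%, 20.2% and 12.8%. WT 1 gave much of the erythroid difference, with 26 of 65 cells with the fewest C1q UMIs and 0 of 14 of the richest, and without WT 1 the erythroid shares were 22.0%, 25.8% and 15.2%. In TLR9-/- 2 they were 17.1%, 20% and 16.7%, and the B-lineage shares 12.2%, 13.3% and 11.1%, so that this library showed little difference. Neutrophil genes were found in 33.0%, 37.5% and 27.7%. Classical monocyte genes were found in 55.9%, 60.6% and 63.8%, and T or NK genes in 3.19%, 0.962% and 4.26%, and neither was lowest in the richest cells. The median UMIs per cell, from the fewest to the most C1q UMIs, were 3455, 2935 and 3061 in TLR9-/- 1, 5445, 4222 and 3692 in TLR9-/- 2, 3088, 2458.5 and 3540 in WT 1 and 2806.5, 10046 and 3535.5 in WT 2. The richest cells were thus shallower than those with the fewest C1q UMIs in both TLR9-/- libraries and deeper in both WT libraries, and the part of depth in these shares was not tested. These are counts over cells of 4 libraries and carry no test, and WT 2 gave only 4 of the 47 richest cells.

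**Figure D3:**
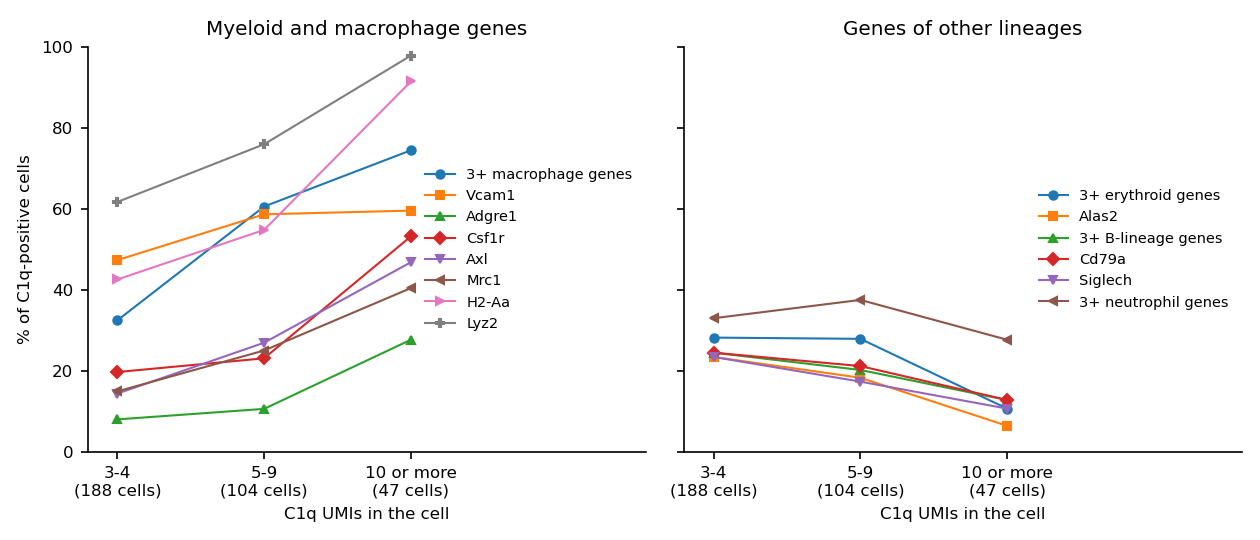
Percentage of C1q-positive cells (y axis) with at least 1 UMI of the named gene, or at least 3 genes of a list, in cells with 3 to 4, 5 to 9 and 10 or more C1q UMIs, pooled over the 4 libraries. At least 3 macrophage genes, and the class II gene H2-Aa, are more frequent in the cells with the most C1q, from 32.4% to 74.5% for the macrophage list. At least 3 erythroid genes are found in 28.2% of the cells with the fewest C1q UMIs and 10.6% of those with the most, or 22.0% and 15.2% without WT 1.

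RNA of other lineages was found in many members, though only some of it more often than in other cells. At least 3 erythroid genes were found in 87 members, at least 3 B-lineage genes in 73, at least 3 of 10 neutrophil genes in 114, at least 3 of 12 classical monocyte genes in 198, at least 3 of 11 dendritic genes in 54 and at least 3 of 9 T or NK genes in 9. Erythroid genes were thus found in 25.7% of members and 11.3% of the other cells, and were more frequent in members in each library. B-lineage genes were found in 21.5% against 42.6%, neutrophil genes in 33.6% against 31.3% and dendritic genes in 15.9% against 5.53%. Of the 54 members with dendritic genes 29 came from WT 1, and at 2000 UMIs per cell dendritic genes were found in 8.0%, 1.37%, 14.5% and 4.88% of members and 4.47%, 5.53%, 4.55% and 3.43% of other cells, with members below the other cells in TLR9-/- 2. Endothelial genes at this level were found in 0 members and stromal genes in 2. Macrophage genes without an erythroid, B-lineage, neutrophil, T or NK, or plasma cell set were found in 62 members, and macrophage genes together with such a set in 97. Such a set without macrophage genes was found in 130 members, and 50 had neither.

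Members with erythroid RNA also carried RNA of macrophage genes more often than other erythroid cells. Of the 87 members with at least 3 erythroid genes, 62.1% had Vcam1, against 5.26% of the 4395 other cells with such genes. Per library the members had 36.8%, 75.0%, 65.8% and 71.4%, and the other cells 4.91%, 6.27%, 4.81% and 5.59%. Fcna was found in 42.5% against 2.25%, Hmox1 in 50.6% against 5.60% and Apoe in 66.7% against 14.3%. Slc40a1, the iron exporter gene that erythroblasts express as well, differed less, with 26.4% against 18.6%. In each library the members were above the other erythroid cells for Vcam1, Fcna, Hmox1 and Apoe. The same order held for Vcam1 at 2000 UMIs per cell, with 15.4%, 23.1%, 48.3% and 9.09% in 13, 13, 29 and 11 members and 2.16% to 2.82% in the other cells.

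The same held for members with B-lineage or neutrophil RNA. Of 73 members with at least 3 B-lineage genes, 54.8% had Vcam1, 28.8% Fcna and 39.7% Hmox1, against 1.74%, 0.538% and 1.90% of 16541 other cells with such genes. Of 114 members with at least 3 neutrophil genes, 56.1% had Vcam1 and 33.3% Fcna, against 9.44% and 1.43% of 12148 other cells. The members with B-lineage genes were deeper, at medians of 2806 to 5885 UMIs against 1245 to 1844.5. At 2000 UMIs per cell Vcam1 was found in 20.0%, 11.1%, 18.2% and 36.4% of 10, 9, 22 and 11 members and in 0.564% to 1.86% of the other cells. Whether these droplets held a macrophage with engulfed cells, a macrophage with attached cells or unrelated cells caught together was not tested, since one barcode carries all of them. Scrublet scores marked 28 members (8.26%) as doublets, against 4.50% of all filtered cells.

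**Figure D4:**
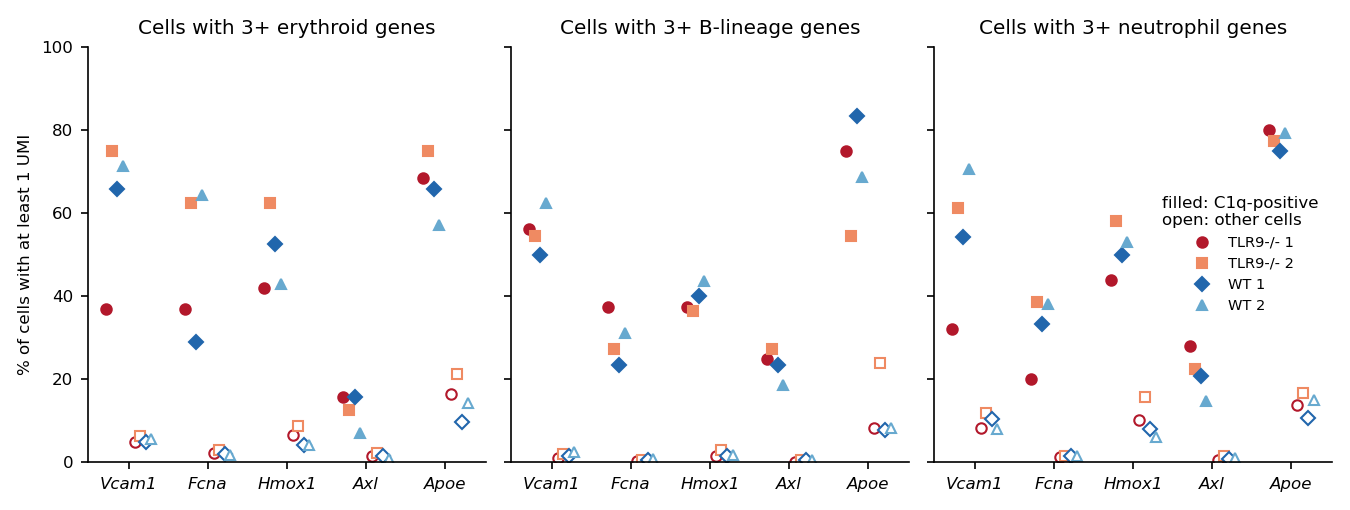
Percentage of cells with at least 1 UMI of Vcam1, Fcna, Hmox1, Axl or Apoe among cells with at least 3 erythroid, B-lineage or neutrophil genes, for C1q-positive cells (filled) and all other cells (open), 1 symbol per library. In every panel and library the filled symbol lies above the open one, for Vcam1 at 32.0% to 75.0% against 1.01% to 12.0%.

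The amount of erythroid RNA in members was set beside that in classical monocytes, which are myeloid cells of the same libraries (here those with under 3 C1q UMIs). At least 2 UMIs of the erythroid list were found in 28.9%, 22.5%, 35% and 28.1% of members and in 3.39%, 3.34%, 5.17% and 4.74% of classical monocytes. At 2000 UMIs per cell these were 26.0%, 17.8%, 33.7% and 29.3% against 2.11%, 2.07%, 4.91% and 3.36%. Members lay above classical monocytes in each library at both depths. Globins made up 3.02%, 0.731%, 5.97% and 1.99% of all UMIs of members, 0.152%, 0.0543%, 0.585% and 0.243% of those of classical monocytes and 1.03%, 0.380%, 3.83% and 0.838% of those of all other cells. WT 1 was the library richest in globin in both the members and the other cells.

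At least 2 UMIs of the B-lineage list were found in 23.7%, 23.6%, 30.8% and 35.1% of members and in 38.2%, 34.4%, 56.7% and 55.7% of all other cells. Classical monocytes had 6.83%, 9.89%, 4.29% and 6.32%, a share that their selection for no Cd79a keeps low. Members thus carried B-lineage RNA less often than the marrow as a whole and more often than classical monocytes in each library.

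A part of the C1q-positive cells were Siglech-positive. Siglech marks plasmacytoid dendritic cells, and 42 members had at least 3 of its UMIs, 25 of them in WT 1, 9 in TLR9-/- 2, 5 in TLR9-/- 1 and 3 in WT 2. Of all cells with at least 3 Siglech UMIs, 6.95%, 9.61%, 15.9% and 8.19% had any C1q UMI, and at 2000 UMIs 4.28%, 4.72%, 11.5% and 3.80%. At that depth each share was above the B-lineage value of its library (1.16%, 1.56%, 2.80% and 1.77%). Against erythroid cells (4.52%, 2.87%, 8.20% and 2.65%) it was lower in TLR9-/- 1 and higher elsewhere. Against cells with T or NK genes (0.787%, 2.68%, 3.70% and 4.30%) it was lower in WT 2 and higher elsewhere. WT 1 held most of the Siglech-positive members and had the highest of these shares, and what sets it apart was not tested. Single cells of rare types also weighed on the sums: 1 cell in TLR9-/- 1 held 6276 of the 6277 UMIs of the antibody gene Igkv6-15, and 1 cell in TLR9-/- 2 held all 3699 UMIs of Igkv14-111 found in its members.

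The genotypes were compared next, beginning with the disrupted gene. Tlr9 (chr9:106222598-106226883) had 41 and 48 UMIs over all filtered cells of TLR9-/- 1 and TLR9-/- 2, and 120 and 97 in WT 1 and WT 2. These are 0.817 and 0.750 CPM in TLR9-/- and 3.84 and 2.34 in WT, so the groups did not overlap and the RNA was lower, though not absent, in TLR9-/-. Which part of the transcript the disrupted allele still makes was not given in the sources used here. Among the members, Tlr9 had 0, 0, 3 and 0 UMIs, so no difference in it was detectable at this depth.

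The share of C1q-positive cells did not differ beyond the spread between mice. It was 0.851% ± 0.207 (SD, n = 2) in TLR9-/- and 0.874% ± 0.329 (SD, n = 2) in WT (two-sided exact permutation test, p = 1.0). With 2 mice per genotype this test cannot give a p below 0.33. Vcam1 or Adgre1 was found in 38.2% and 68.5% of TLR9-/- members and in 55.6% and 64.9% of WT members (exact permutation p = 1.0). Erythroid RNA, at 2 or more UMIs, was found in 25.7% ± 4.58 of TLR9-/- and 31.6% ± 4.93 of WT members (SD, n = 2, exact permutation p = 0.67). B-lineage RNA was found in 23.6% ± 0.0627 of TLR9-/- and 32.9% ± 3.05 of WT members (SD, n = 2, exact permutation p = 0.33). B-lineage RNA was the measure without overlap between the genotypes among these 4, and the other cells showed the same order, with 38.2% and 34.4% in TLR9-/- and 56.7% and 55.7% in WT. The Benjamini-Hochberg adjusted p over these 4 exact tests was 1.0 for each. Less B-lineage RNA per cell and fewer B cells in the marrow to be caught with the members cannot be told apart.

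Very few genes passed the test for a difference between TLR9-/- and WT members, and a gene that did not pass is not shown to be equal. UMIs were summed over the members of each library and tested with edgeR's quasi-likelihood test, with p-values adjusted by the Benjamini-Hochberg method over 5325 genes. Of these, 2 passed an adjusted p of 0.05 (0.0376% of the genes tested), both higher in TLR9-/-, and 183 had an unadjusted p below 0.05. BC018473, an antisense RNA gene at chr11:116752167-116759373, had 66 and 199 UMIs in TLR9-/- and 0 and 0 in WT members (adjusted p = 0.00166). With 3 UMIs over the WT members as the limit that a count of 0 allows, it was at least 69.5-fold higher. Gm6594, a processed pseudogene at chr17:82539260-82539545 whose reads could be shared with its parent gene, had 28 and 82 UMIs in TLR9-/- and 0 and 0 in WT members (adjusted p = 0.0103), at least 28.9-fold higher. Both were as uneven in all other cells, where BC018473 had 153 and 224 CPM in TLR9-/- and 0.0652 and 0.0 in WT, so the pattern was not particular to the C1q-positive cells. Leaving out 1 library at a time leaves 1 genotype with 1 library, so the spread comes from the other genotype alone, and such fits called 16 to 49 genes. With at least 5 C1q UMIs edgeR called 0 genes, with 42 at an unadjusted p below 0.05, while the fitted log2 fold changes were 8.33 for BC018473 and 6.99 for Gm6594, against 9.87 and 8.61 in all members. The call of Gm6594 was also lost without marked doublets (8.28) and without members with erythroid or B-lineage RNA (7.33).

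The next genes by p did not pass the adjustment. Higher in both TLR9-/- libraries were Mid1, a ubiquitin ligase gene, with 14 and 46 UMIs against 3 and 1 (log2 fold change 3.48, SE 0.59, edgeR adjusted p = 0.188), Iglv1 with 67 and 67 against 5 and 7, and Gm35082 with 11 and 29 against 0 and 0, at least 10.5-fold. Of the 67 Iglv1 UMIs, 63 in TLR9-/- 1 and 54 in TLR9-/- 2 lay in 1 cell each. Lower in both were Gm34084 with 0 and 0 against 26 and 11 (at least 15.7-fold), Trim12a with 0 and 0 against 17 and 12 (at least 12.3-fold), Gm42047 with 0 and 4 against 26 and 13, the histone gene Hist1h4i with 11 and 14 against 64 and 33, and Igll1, a surrogate light chain gene of early B cells, with 5 and 2 against 72 and 10. The edgeR adjusted p of Gm34084 was 0.188, that of Trim12a 0.202, and that of Igll1 1.0. The genes at 0 in one genotype showed the same contrast in the other cells of the marrow, where Trim12a had 0.100 and 0.111 CPM in TLR9-/- and 33.7 and 30.4 in WT.

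The macrophage genes of the members showed no difference that passed. Vcam1 had 115, 184, 242 and 228 CPM in TLR9-/- 1, TLR9-/- 2, WT 1 and WT 2 (log2 fold change -0.59, SE 0.30, edgeR adjusted p = 1.0), with both TLR9-/- libraries below both WT libraries. Hmox1 had 171, 174, 153 and 87.7 (0.57, SE 0.33), also without overlap. Fcna (-0.10, SE 0.31), Axl (0.21, SE 0.43), Mrc1 (0.80, SE 0.51), Apoe (0.36, SE 0.47), Slc40a1 (0.07, SE 0.35) and Adgre1 (0.33, SE 0.49) all had an edgeR adjusted p of 1.0, and their libraries overlapped. Lyz2 had 2488 and 4154 UMIs in TLR9-/- and 1629 and 1557 in WT members (0.88, SE 0.37, edgeR adjusted p = 1.0).

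Of 212 tested genes in the gene lists, 0 passed the adjusted threshold of edgeR in either direction and 23 (10.8%) had an unadjusted p below 0.05, against 3.44% of all 5325 genes. Of these 23, 5 were B-lineage and 5 classical monocyte genes. No test was run on this share, and the lists are described by their medians and by the number of genes on each side. Over all 5325 genes the median log2 fold change (TLR9-/- against WT) was 0.01, 50.5% lay above 0 and 49.5% below. In 14.6% both TLR9-/- libraries were above both WT libraries, and in 13.8% both were below. Of the 16 macrophage genes other than C1q, 9 were tested, with a median of 0.20 and 6 above 0. With the C1q genes, which chose the cells, the median of 12 was 0.14, and it was below 0 in 6 of 17 alternatives. For the 14 tested genes of iron and haem handling the median was 0.12, for 26 lysosome genes 0.23 with 20 above 0, and for 5 complement genes other than C1q 0.05. The 8 tested MHC class II genes were above 0, with a median of 0.49, and 1 of them had libraries that did not overlap. This median was -0.26 without TLR9-/- 1, 0.08 without WT 2 and 1.23 without WT 1. The 7 tested osteoclast genes were above 0 as well, with a median of 0.66 and 3 without overlap, and with a median of 0.15 without TLR9-/- 1. The genes of highest level on this list were Tyrobp, Spi1, Fos and Csf1r, which other myeloid cells express too. In all other marrow cells the summed list was also higher in TLR9-/-, with 2595 and 2450 CPM against 2090 and 1870 in WT. Of 12 interferon-response genes 10 were below 0, with a median of -0.32 that became 1.07 without WT 1. Isg15, an interferon-induced ubiquitin-like modifier, had 59 and 87 UMIs in TLR9-/- and 276 and 23 in WT members, so that WT 1 was the high and WT 2 the low library. WT 1 also held most of the Siglech-positive members, whose part in this was not tested.

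Of the lists of uptake and support of other cells, 7 dead-cell uptake genes had a median of 0.34. For 11 genes of adhesion and niche factors it was 0.45, with 5 above and 2 below without overlap. For 11 lipid genes it was 0.38 and for 6 Fc receptor genes 0.22. With 1 library left out the medians were 0.11 to 0.64 for dead-cell uptake, 0.15 to 0.73 for adhesion and niche factors and 0.01 to 0.75 for Fc receptors. The 8 genes of macrophage transcription factors had a median of -0.06, with 4 on each side. The medians were 0.62 for 9 early-response genes, 0.11 for 6 inflammation genes and -0.18 for 19 cell-cycle genes, 13 of which were below 0. The early-response median rested on TLR9-/- 1 and was -0.55 without it: Fos, an immediate early gene, had 288 and 45.7 CPM in TLR9-/- and 104 and 23.1 in WT members. Without TLR9-/- 1 the lipid median was -0.09 and the inflammation median -0.11, and without WT 1 the transcription factor median was 0.37. Without WT 2 the inflammation median was -0.09, the lysosome median -0.03 and the iron and haem median close to 0 (-0.003). Of 16 Toll-like receptor pathway genes 2 had enough UMIs to be tested, with a median of 0.11. It was 0.80 without WT 1, -0.30 without WT 2 and -0.05 without TLR9-/- 1. This pathway could thus hardly be examined at this depth. Nonclassical monocyte (4 genes, 0.30), dendritic (5, -0.46), myeloid progenitor (5, 0.44), plasma cell (2, 1.40), T or NK (2, -0.01), megakaryocyte (1, 1.02) and endothelial (1, -0.03) lists had few tested genes. Basophil and stromal lists had 0. Without WT 1 the dendritic median was 0.77, and without TLR9-/- 2 that of the myeloid progenitor list was -1.19. The plasma cell median was 0.46 without TLR9-/- 1 and 3.86 without WT 2. Leaving out 1 library gave 0.15 to 0.59 for the nonclassical monocyte list and -0.25 to -0.04 for the cell-cycle list. For the T or NK list it gave -0.61 to 0.17, for the megakaryocyte gene 0.59 to 1.79 and for the endothelial gene -0.49 to 0.53.

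Markers of other lineages were measured in the same members. The 14 erythroid genes were below 0 (median -0.44, 3 without overlap), as were the 4 globins (median -0.98, 2 without overlap) and the 8 tested B-lineage genes (median -1.12, 6 without overlap). Cd79a had 54 and 129 UMIs in TLR9-/- and 181 and 98 in WT members (-0.87, SE 0.31), and Vpreb3, a gene of early B cells, 70 and 51 against 272 and 126 (-1.63, SE 0.53), both with an edgeR adjusted p of 1.0. Of 11 classical monocyte genes 10 were above 0 (median 0.56, 6 without overlap), as were 9 of 9 neutrophil genes (median 0.38, 2 without overlap). Over all tested genes 13.8% were below and 14.6% above without overlap. In all other marrow cells the summed lists had the same order without overlap for erythroid genes (966 and 1204 CPM in TLR9-/-, 2044 and 1628 in WT). This held for B-lineage (2058 and 1355 against 4459 and 3438) and classical monocyte genes (9631 and 10398 against 7080 and 7073). Globin and neutrophil sums overlapped there. The erythroid median was -0.14 without TLR9-/- 2, -0.06 with at least 5 C1q UMIs and close to 0 (-0.005) in members chosen after thinning. That of the globins was -2.24 without TLR9-/- 1 and -0.52 without TLR9-/- 2. The B-lineage median ranged from -2.25 to -0.55 over its 16 alternatives, and the neutrophil median from -0.45 to 1.14, with its sign kept in 13 of 17. At least 3 classical monocyte genes were found in 50% and 74.2% of TLR9-/- and in 58.1% and 45.6% of WT members. Without the members that held erythroid or B-lineage RNA, 1 gene was called and the medians were 0.10 for class II, 0.24 for osteoclast, -0.09 for lysosome and -0.75 for interferon genes.

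**Figure D5:**
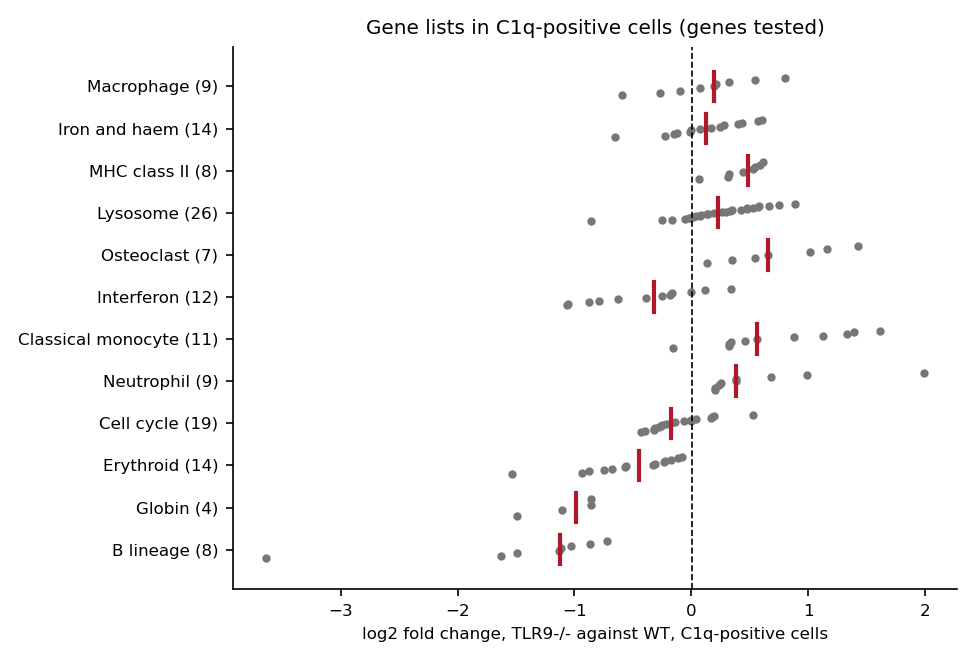
Log2 fold change (TLR9-/- against WT, x axis) of each tested gene (grey points) of 12 gene lists, without the C1q genes, in C1q-positive cells, with the list's median (red bar) and the median of all 5325 genes (dashed line); numbers in parentheses count the tested genes. B-lineage, globin and erythroid genes lie to the left of the dashed line and class II, osteoclast and neutrophil genes to the right, and no gene shown passed the adjusted threshold.

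To ask whether genotype differences in the C1q-positive cells differed from those in other myeloid cells of the same mice, the difference was set against that in 4934 classical monocytes by an interaction term with the library as a block. Of 10248 genes, 15 passed (0.146%), 12 with a higher and 3 with a lower difference in members. S100a6, a calcium-binding protein gene, had 829 and 935 normalised CPM in TLR9-/- and 522 and 372 in WT members, but 1681 and 1465 against 2039 and 1869 in classical monocytes (log2 difference 1.31, SE 0.23, edgeR adjusted p = 0.0154). Ifitm3, an interferon-inducible membrane protein gene, had 1319 and 1088 against 1063 and 356 in members and 1760 and 1813 against 3098 and 1820 in classical monocytes (1.35, SE 0.25, edgeR adjusted p = 0.0169). Lyz2 had a difference of 1.04 (SE 0.21) and Ifitm6 of 1.36 (SE 0.27), with an edgeR adjusted p of 0.0455 for both. The other 7 genes with a higher difference besides Igkv14-111 were Lgals3, Tgfbi, Plbd1, Ccr2, Hba-a2, Hbb-bs and Mmp8. Of these, Ccr2 was used to choose the classical monocytes. A higher difference is not a higher level: Hba-a2 had 2491 and 1287 CPM in TLR9-/- members and 3832 and 3530 in WT members. With another normalization (RLE in place of TMM) 2 genes passed, Id3 and Igkv1-117. The calls of the genes with a higher genotype difference in members were lost, with the differences nearly the same in size. Without WT 2 the difference was 1.14 for S100a6 and 0.97 for Ifitm3, without TLR9-/- 2 it was 1.10 for S100a6, and none of these passed. That of Lyz2 was 0.77 without TLR9-/- 1 and likewise without WT 1, and that of Ifitm6 was 1.04 without WT 1, and these did not pass either. With at least 5 C1q UMIs the differences of S100a6 (1.43), Ifitm3 (1.15) and Lyz2 (0.88) did not pass. All other marrow cells had the order of the members for S100a6, with 1026 and 1061 CPM in TLR9-/- and 754 and 984 in WT, and for Lyz2, with 3995 and 4185 against 2749 and 2946.

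Id3, an inhibitor of helix-loop-helix transcription factors, was lower in the comparison (-3.58, SE 0.54, edgeR adjusted p = 0.00152). Members had 36.0 and 26.8 normalised CPM in TLR9-/- and 60.3 and 69.3 in WT, while classical monocytes had 10.3 and 11.9 against 2.83 and 1.22. The genotypes were thus ordered oppositely in the cell classes, without overlap in either. The members' Id3 values rest on 12, 24, 34 and 30 UMIs, and 14 of the 30 in WT 2 lay in 1 cell. All other marrow cells had the order of the members, with 70.6 and 59.0 CPM in TLR9-/- and 117 and 79.4 in WT. The call held without each library in turn and was lost with at least 5 C1q UMIs (-3.06). Cxcl12, the chemokine that retains blood cells in the marrow, differed by -3.26 (SE 0.69, edgeR adjusted p = 0.0470). The members of WT 2 held 94 UMIs, 48 of them in 1 cell, against 1, 5 and 3 in the other libraries, and without WT 2 the difference was -1.97 and did not pass. Igkv1-117 (-8.62, SE 1.17) rested on 1 cell of WT 1 with 24 of 26 UMIs and on 332 UMIs in the classical monocytes of TLR9-/- 2. Its difference was -0.44 without WT 1 and -9.09 without TLR9-/- 2, and neither passed. Igkv14-111 (10.79, SE 2.04) was 6.57 without TLR9-/- 2 and 6.39 without WT 2, and neither passed.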

How the data were processed

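BMNCs of 2 TLR9-/- and 2 WT mice were profiled on the 10x Chromium platform from the 5′ end. Per the file headers and the submitters' processing notes, the authors made the deposited UMI counts with Cell Ranger 3.0.1 (which uses STAR) on mm10, and Seurat 2.3.4 is also named. No other sample columns (0) were present. The matrices hold unnormalized whole-number counts of 11069, 9173, 11108 and 9195 barcodes. The files used here hold no cell types. Groups and replicate numbers were taken from the sample labels. Nothing says whether the same number marks the same experiment. The methods state that each experiment held 1 mouse of each genotype.

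Cells with 200 to 10000 genes and at most 10% mitochondrial UMIs were kept, and C1q-positive cells were chosen as described above. The cells, lists and tests were chosen with earlier results of these data known. Doublets were scored with Scrublet in scanpy 1.11.5 and kept unless stated. In WT 2 its automatic threshold marked almost no cells, so the highest scores at the expected rate were marked. To compare detection at equal depth, cells were thinned to 2000 UMIs and shallower cells were left out. UMIs were summed per library and tested with edgeR 4.0.16 (filterByExpr, TMM, glmQLFit, glmQLFTest), and DESeq2 1.42.0 was an alternative. The test steps were checked on simulated data with the same fixed spread for all genes. This checks the steps and does not give their power in the real counts. With 2 mice per genotype, p-values measure the spread between these mice. Gene coordinates are from GENCODE (GRCm38). Intervals and the limit of 3 counts for a count of 0 cover counting error only.

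Genes were named by rule: Tlr9 and the markers C1qa, C1qb, C1qc, Vcam1 and Adgre1, the 5 genes of smallest p per direction whose libraries did not overlap where fewer than 5 passed, up to 4 genes of highest level per list with its defining markers, the 25 genes of highest member-to-other ratio, and up to 5 genes per direction that passed the interaction test. One listed gene is not reported here. Igkv6-15 and Siglech counts were added after their values were seen. Alternatives varied the C1q minimum (2, 5 and 10), the mitochondrial limit, depth, doublets, other lineages' RNA, normalization, filter, test, the replicate block and the libraries used.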

Additional observations from a re-analysis of the deposited data

Results flagged for a closer look

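The genotype difference in C1q-positive cells differed from that in classical monocytes (edgeR interaction test, log2 difference) for S100a6 by 1.31, for Ifitm3 by 1.35, for Ifitm6 by 1.36 and for Lyz2 by 1.04, genes of myeloid cells. S100a6 and Lyz2 had the same genotype order in all other marrow cells as in the members. The antibody gene Igkv14-111 differed by 10.79, with all 3699 UMIs of TLR9-/- 2 in 1 cell. The differences of Id3, Cxcl12 and Igkv1-117 were -3.58, -3.26 and -8.62. Of these 8 genes, Id3 and Igkv1-117 also passed with RLE normalization. Classical monocytes were chosen on Ly6c2 and Ccr2, and the members hold cells of several lineages, whose part in these differences was not tested.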

How the results depend on the processing

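The log2 ratio of the share of C1q-positive cells (TLR9-/- over WT) was -0.04, -0.68 with members chosen after thinning to 2000 UMIs, and 0.78 with at least 10 C1q UMIs, where WT 2 had 4 cells. Leaving out 1 library gave -0.38 to 0.41. The ratio of the erythroid share was -0.30 and became 0.12 in members chosen after thinning to 2000 UMIs. With at least 10 C1q UMIs it could not be formed. The ratio of the B-lineage share was -0.48, and -1.33 after thinning and 0.33 with at least 10 C1q UMIs. The 2 genotype genes became 12 with at least 2 C1q UMIs, 57 without the filter on low counts (25 higher, 32 lower), 1 of the 2 without marked doublets, 1 of the 2 without members with erythroid or B-lineage RNA, 1 other gene, lower in TLR9-/-, with members chosen after thinning, and 0 with at least 5 C1q UMIs (42 at an unadjusted p below 0.05). The call lost without marked doublets, and without members with erythroid or B-lineage RNA, was that of Gm6594. Its log2 fold change was 8.28 and 7.33 there, against 8.61 in all members. Alternatives chosen after seeing the data gave 1 gene for members with at least 3 macrophage genes and 2 without plasma cells. Leaving out 1 library gave 16 to 49 genes, with 49 without TLR9-/- 1, 16 without TLR9-/- 2, 44 without WT 1 and 46 without WT 2. DESeq2 called 3. At least 10 C1q UMIs was not run for genes. The 15 interaction genes became 17 with at least 5 C1q UMIs, 5 of them shared, 2 with RLE normalization, 45 without the filter and 31 to 61 without 1 library (31, 61, 55 and 31 in the order of libraries). The cause of these changes was not tested.

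With the replicate number as a block, 3 genotype genes passed. Deviations of same-numbered libraries correlated at 0.19 over 5325 genes, but with 2 mice per genotype the numbers are not shown to pair the libraries. List medians of the erythroid (-0.88 to -0.005), B-lineage (-2.25 to -0.55), classical monocyte (0.24 to 1.07) and osteoclast (0.15 to 1.07) lists kept their sign in all alternatives run. In all other marrow cells the summed level of each of these lists had the same genotype order, without overlap. The interferon median ranged from -0.83 to 1.07 and the lysosome median from -0.09 to 0.71. The macrophage median, C1q genes included, ranged from -0.19 to 0.63 and the class II median from -0.26 to 1.23. The results are limited by 2 mice per genotype and by depth: the members of a library held 374524 to 875636 UMIs, and 57 to 117 cells.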

Other observations

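At least 3 of 19 cell-cycle genes were found in 170 of 339 members (50.1%), in 46.9% of the other cells and in 71.9% of classical monocytes, and Mki67, a proliferation marker, in 129 members. At 2000 UMIs per cell the shares were 46.0%, 43.8%, 51.8% and 68.3% of members and 68.9%, 53.8%, 72.6% and 68.2% of other cells in TLR9-/- 1, TLR9-/- 2, WT 1 and WT 2, so members lay below the other cells in all but WT 2. Hmgb2 was near its level in the other cells, at 0.849 to 1.01, and Stmn1, a microtubule regulator of dividing cells, was below it in each library, at 0.582 to 0.853 of the level in other cells. Of the innate sensors, Tlr7 had a mean of 13.5 CPM in members and 7.32 in other cells, and Unc93b1, the chaperone that carries endosomal Toll-like receptors, 208 and 223. Bst2, an interferon-induced antiviral gene, had a ratio of 1.15 to 2.52 and Irf7, the interferon regulatory factor, 2.01 to 3.69, with the highest Irf7 level (194 CPM) in WT 1. WT 1 was also the library with 25 of the 42 Siglech-positive members.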
